A study of Mus musculus with 9 samples.

Results

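The 9 nuclear genes *Cox4i1*, *Cox4i2*, *Cox6a1*, *Cox6a2*, *Cox7a1*, *Cox7a2*, *Cox7a2l*, *Cox8a* and *Cox8b* encode the paired isoforms of cytochrome c oxidase and 1 relative, and were taken by symbol from a table of 48820 genes. All 9 were found and all 9 passed the filter, a mean of 1 FPKM or more. The table holds RNA-seq of 9 whole hearts of untreated wild-type C57BL/6J mice, 3 each at E18.5d (late foetal), P1d and P7d (postnatal days), all labelled male and numbered as biological replicates 1 to 3. Total RNA was extracted with TRIzol and made into libraries with a NEBNext Ultra kit. Values are FPKM, fragments per kilobase of transcript and per 1e6 fragments, as deposited by the authors. No source used here says whether a replicate was 1 heart or a pool, so p-values measure the spread between these samples.

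Cytochrome c oxidase, complex IV of the respiratory chain, passes electrons from cytochrome c to oxygen and pumps protons. Its catalytic core is encoded by mitochondrial DNA, and small nuclear-encoded subunits surround it. Several of these subunits exist in pairs: a form made in most tissues, such as *Cox6a1*, *Cox7a2* and *Cox8a*, and a form of heart, skeletal muscle or brown fat, such as *Cox6a2*, *Cox7a1* and *Cox8b*. The foetal heart is known to make both, and the muscle form to take over as the heart matures. The Cox4 pair differs in kind: *Cox4i1* is the general form and *Cox4i2* a form of lung, pericytes and other oxygen-sensing cells. *Cox7a2l* (SCAFI) is related to Cox7a in sequence but joins complexes III and IV into supercomplexes.

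The genes lie apart except that the 3 muscle forms share a chromosome. In GENCODE M21 of GRCm38, *Cox6a2* is at chr7:128205435-128206387, *Cox7a1* at chr7:30184144-30186078 and *Cox8b* at chr7:140898945-140900446. The general forms are at chr5:115345642-115348981 (*Cox6a1*), chr9:79755361-79759878 (*Cox7a2*), chr19:7215153-7217616 (*Cox8a*) and chr8:120668222-120674207 (*Cox4i1*). *Cox4i2* is at chr2:152754173-152765037 and *Cox7a2l* at chr17:83501918-83517330.

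Of the 9 genes, 6 had a promoter in the RefSeq table of GRCm38.p6. The 5 shown here are those of the 2 pairs with both promoters in the table, and of *Cox6a1*, whose transcript fell furthest. Each is the 250 bases before the start, 5′ to 3′ on the gene's strand, and capitals mark every match to a motif searched.
Cox8b: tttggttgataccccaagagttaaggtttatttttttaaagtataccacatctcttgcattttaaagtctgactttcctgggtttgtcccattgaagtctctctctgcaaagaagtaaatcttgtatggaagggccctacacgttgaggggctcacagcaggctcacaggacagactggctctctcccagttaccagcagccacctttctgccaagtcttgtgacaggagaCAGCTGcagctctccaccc
Cox7a1: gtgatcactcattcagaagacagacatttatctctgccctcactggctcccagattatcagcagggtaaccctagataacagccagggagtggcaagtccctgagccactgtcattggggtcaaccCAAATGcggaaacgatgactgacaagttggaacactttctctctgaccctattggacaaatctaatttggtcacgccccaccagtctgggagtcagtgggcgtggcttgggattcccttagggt
Cox8a: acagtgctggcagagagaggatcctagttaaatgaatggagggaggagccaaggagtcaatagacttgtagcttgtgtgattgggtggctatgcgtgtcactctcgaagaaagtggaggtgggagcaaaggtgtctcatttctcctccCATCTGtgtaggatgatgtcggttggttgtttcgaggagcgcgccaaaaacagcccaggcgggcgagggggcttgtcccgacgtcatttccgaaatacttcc
Cox7a2: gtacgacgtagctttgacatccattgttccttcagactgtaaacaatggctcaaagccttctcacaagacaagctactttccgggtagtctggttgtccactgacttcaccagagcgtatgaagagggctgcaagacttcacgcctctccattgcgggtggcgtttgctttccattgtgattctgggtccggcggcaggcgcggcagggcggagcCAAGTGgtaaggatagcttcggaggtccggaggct
Cox6a1: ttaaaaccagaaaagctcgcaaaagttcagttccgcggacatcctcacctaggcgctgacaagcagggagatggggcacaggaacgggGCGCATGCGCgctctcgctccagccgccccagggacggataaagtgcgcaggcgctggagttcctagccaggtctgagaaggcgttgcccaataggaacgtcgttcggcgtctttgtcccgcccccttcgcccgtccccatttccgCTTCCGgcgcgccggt
These windows are chr7:140900447-140900696 (minus strand, *Cox8b*), chr7:30183921-30184170 (plus strand, *Cox7a1*), chr19:7217617-7217866 (minus strand, *Cox8a*), chr9:79759854-79760103 (minus strand, *Cox7a2*) and chr5:115348959-115349208 (minus strand, *Cox6a1*). The promoter of *Cox8b* held 1 CG dinucleotide and that of *Cox7a1* held 4, whereas those of *Cox8a*, *Cox7a2l*, *Cox7a2* and *Cox6a1* held 11, 13, 14 and 26. Of all 32851 promoters in the table, 92.1% had at least as many CG as *Cox8b*, 62.2% at least as many as *Cox7a1*, and 9.59% at least as many as *Cox6a1*. Both strands were searched for 6 motifs. An E box (CANNTG) was in 5 of the 6 promoters, against 66.2% of all promoters, and the one nearest a start was 14 to 19 bases before that of *Cox8b*. The NRF1 letters GCATGCGC, in 2 overlapping matches on opposite strands, and the ETS letters CGGAAG were found in the *Cox6a1* promoter alone, against 2.26% and 13.6% of all promoters. The MEF2 motif (2.92% of all promoters), the ERR half-site AAGGTCA (4.08%) and the YY1 letters GCCATNTT (3.91%) were in none of the 6 windows, which says only that these letters are not there.

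The hearts did not all match their labels. In 4 of the 9, 2 at E18.5d and 2 at P7d, *Xist* was at 58.0 to 97.0 FPKM and the 4 Y-linked genes read were at 0, whereas in the other 5 *Xist* was at most 0.11 FPKM and each Y-linked gene at least 9.74 FPKM. The label "male" therefore does not hold for these 4. For the 9 isoform genes, the calls without them are given at the end. All other genes are given only with them. Without them, E18.5d and P7d keep 1 heart each. Depth, read from the steps between low values, was 25.2 to 45.4 in units of 1e6 fragments. Cardiomyocyte markers were abundant (12 genes summing to 34050 to 41960 FPKM in all hearts), and of 10 markers of skeletal muscle, which also makes the muscle forms, 5 reached 1 FPKM in any heart. The highest of these was *Tnni2* (3.32 to 7.96 FPKM), and the skeletal muscle myosins *Myh1*, *Myh2* and *Myh4* were at 0.1 FPKM or less. Fragment length differed by stage, with means of 292 to 305 bases at E18.5d, 321 to 328 at P1d and 308 to 321 at P7d. This matters for the shortest transcripts, since the deposited values divide by an effective length, the transcript minus the fragment. For *Cox8b*, a transcript of 360 bases, that length was 67.0 to 75.7 bases at E18.5d, 52.1 to 55.9 at P1d and 56.9 to 63.4 at P7d.

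In each of Cox6a, Cox7a and Cox8, the muscle form made up more of the pair at P7d than at E18.5d, but the 3 pairs reached this by different routes. In Cox6a the general form fell, from 482 to 229 FPKM on average, and no change of the muscle form was detected. In Cox8 the general form fell and the muscle form rose. In Cox7a the muscle share first dropped at P1d and then rose. The plot of levels by heart shows all 9 genes.

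**Figure D1:**
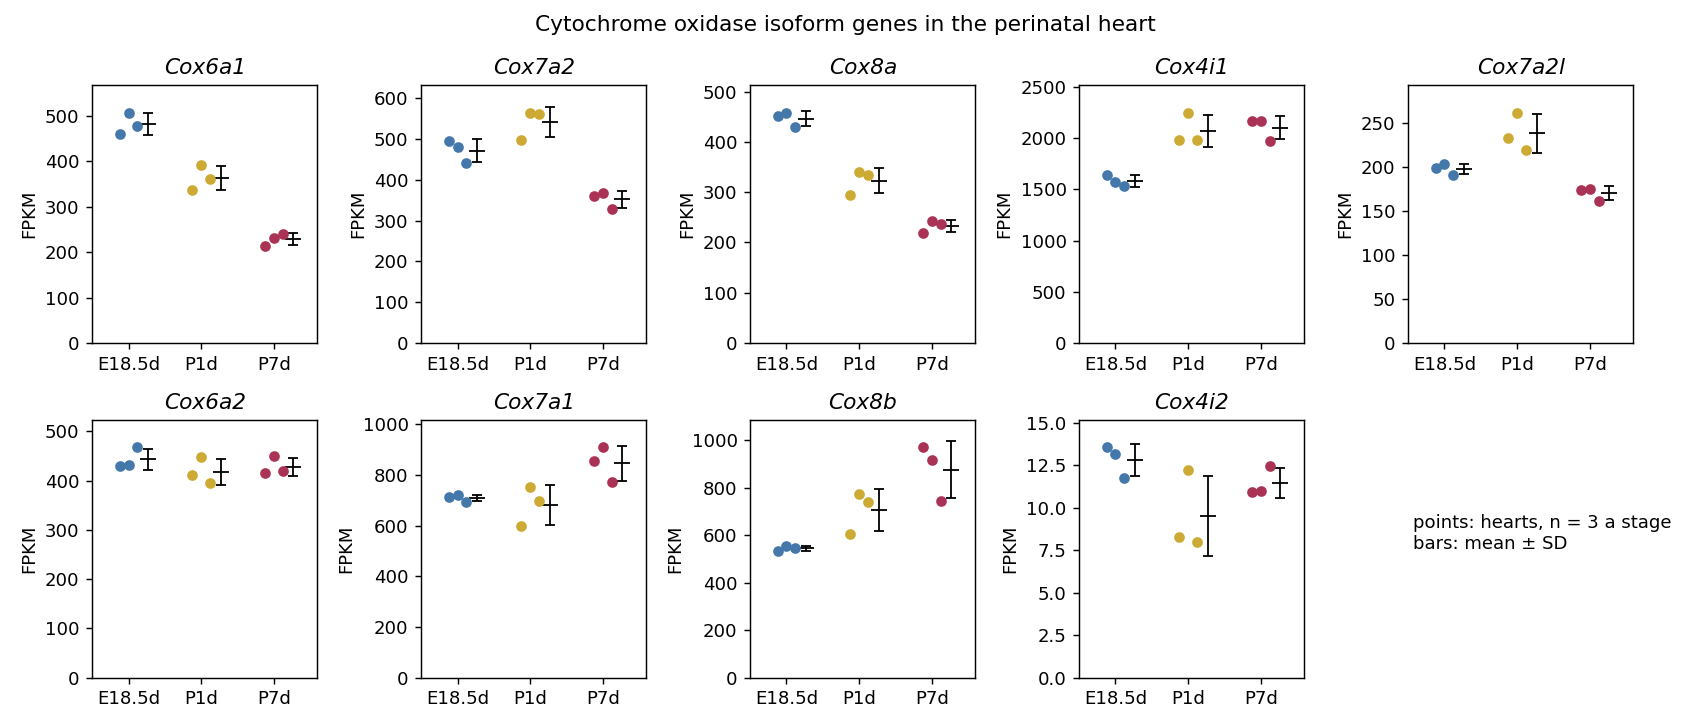
FPKM of the 9 genes (y axes, from 0) in each heart by stage (x axis), with points for hearts and bars for mean ± SD (n = 3). Cox6a1 and Cox8a stepped down at each stage without overlap between stages, from 482 ± 23.6 to 229 ± 13.9 and from 447 ± 15.0 to 233 ± 12.3 FPKM, while Cox6a2 overlapped at all 3 stages.

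*Cox6a1*, the general form of a regulatory subunit, stood at 461, 508 and 479 FPKM in the E18.5d hearts, at 338, 391 and 361 at P1d and at 214, 232 and 241 at P7d. Every P7d heart was below every P1d heart, and every P1d heart below every E18.5d heart. On the log2(FPKM + 1) scale the difference between P7d and E18.5d was -1.07 ± 0.07 (SE, adjusted p = 5.76e-06 by limma), the largest among the 9 genes. Of that, -0.41 (adjusted p = 0.00168) lay between E18.5d and P1d and -0.66 (adjusted p = 0.000142) between P1d and P7d. Without the 4 hearts that go against their label it was still called between P7d and E18.5d (-1.24, adjusted p = 0.0441), the one difference of the 9 genes that was.

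*Cox6a2*, its heart and skeletal muscle partner, was at 429.6, 431 and 467 FPKM at E18.5d, at 412, 447 and 394 at P1d and at 416, 449 and 418 at P7d. The hearts of the 3 stages overlapped throughout. The P7d minus E18.5d difference in log2(FPKM + 1) was -0.05 (95% interval -0.20 to 0.10, adjusted p = 0.563), so a change within that interval could not be told from none on this scale. After median-of-ratios scaling the same difference was 0.13 (adjusted p = 0.166), and after quantile normalization 0.25, which was called (adjusted p = 0.0124).

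*Cox6a2* was thus 48.2%, 45.9% and 49.4% of the summed FPKM of the pair at E18.5d, 55.0%, 53.3% and 52.2% at P1d and 66.1%, 66.0% and 63.5% at P7d. The stages did not overlap. The means were 47.9% ± 1.77, 53.5% ± 1.40 and 65.2% ± 1.48 (SD, n = 3). The exact permutation test of the between-stage spread gave p = 0.00357, the smallest it allows over 1680 assignments, and 0.00476 adjusted over the 4 pairs. The summed FPKM of the pair fell with *Cox6a1*, from 890.4 to 946 at E18.5d to 749.8 to 838 at P1d and 629.6 to 681 at P7d.

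*Cox8b*, the muscle form of a very small subunit, was at 535, 555 and 546 FPKM at E18.5d, at 606, 774 and 739.7 at P1d and at 969, 914 and 742 at P7d. All postnatal hearts were above all E18.5d hearts, whereas P1d and P7d hearts overlapped. Between P7d and E18.5d the log2(FPKM + 1) difference was 0.67 ± 0.11 (SE, adjusted p = 0.00114 by limma). This call was lost in 1 of 23 alternatives, without the 4 hearts (0.80, adjusted p = 0.123).

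The earlier step of *Cox8b* depended on the length used. P1d hearts were higher than E18.5d hearts by 0.37 (adjusted p = 0.0264), but on values restored to whole transcript length, which removes the division by effective length, the same contrast was -0.03 (adjusted p = 0.860). Without any 1 of the E18.5d hearts, or without P1d replicate 2 or 3, the call was lost on the deposited scale too (adjusted p = 0.0584 to 0.0831). Fragments were recomputed as FPKM times the fitted effective length. *Cox8b* had 37.5, 37.2 and 41.4 fragments per 1e6 at E18.5d, 32.7, 43.2 and 38.5 at P1d, and 55.1, 57.9 and 44.6 at P7d. In fragments, E18.5d and P1d overlapped, and P7d stood above both. Like whole-length values, fragments carry no correction for fragment length, and the effective length was shorter at P1d than at E18.5d. The step from P1d to P7d was 0.31 on the deposited scale (adjusted p = 0.0536, and 0.0368 or 0.0145 without P1d replicate 2 or P7d replicate 3) and 0.46 at whole length (adjusted p = 0.00851). The P7d against E18.5d difference at whole length was 0.43 (adjusted p = 0.00970).

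*Cox8a*, the general form, fell at both steps, as *Cox6a1* did. It was at 452, 459 and 430.0 FPKM at E18.5d, at 294, 340.3 and 335 at P1d and at 219, 243 and 237 at P7d, again with no overlap between stages. The log2(FPKM + 1) differences were -0.47 at P1d against E18.5d, -0.47 at P7d against P1d and -0.94 at P7d against E18.5d (adjusted p = 0.000627, 0.000741 and 1.1e-05 by limma). Whole length made the last -1.03 and median of ratios made it -0.76, both called.

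The share of *Cox8b* in its pair was 54.2%, 54.7% and 56.0% at E18.5d, 67.3%, 69.5% and 68.9% at P1d and 81.6%, 79.0% and 75.8% at P7d. Its means of 55.0% ± 0.900, 68.6% ± 1.11 and 78.8% ± 2.90 (SD, n = 3) correspond to a *Cox8b* to *Cox8a* ratio of 1.22, 2.18 and 3.74 by geometric mean. No stages overlapped (exact permutation p = 0.00357, 0.00476 adjusted). The summed FPKM of the pair overlapped at all stages, at 976 to 1014, 899 to 1114 and 979 to 1188.

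*Cox7a1*, the muscle form of the third pair, was at 712, 719 and 695 FPKM at E18.5d, at 598, 751 and 696 at P1d and at 856, 909 and 770.3 at P7d. The P7d hearts were all above the other 6, and E18.5d and P1d hearts overlapped. The P1d minus E18.5d difference in log2(FPKM + 1), -0.06 (adjusted p = 0.604 by limma), was not called, but it was called lower at whole length (-0.39, adjusted p = 0.00921), at whole length with median of ratios (-0.30, adjusted p = 0.0391) and under an equal sum (-0.24, adjusted p = 0.0216). In fragments per 1e6, P1d hearts (46.7 to 60.5) lay below E18.5d hearts (67.3 to 72.3) without overlap. Neither fragments nor whole length correct for fragment length. The effective length of *Cox7a1* was 93.6 to 104 bases at E18.5d and 75.8 to 80.6 at P1d. Median of ratios on deposited values gave a P1d minus E18.5d difference of 0.01. The P7d minus E18.5d difference in log2(FPKM + 1) was 0.25 (adjusted p = 0.0452 by limma). It lost its call in 12 of 23 alternatives, among them the whole-length scale (0.05, adjusted p = 0.697) and the omission of any E18.5d heart, of P1d replicate 3 or of P7d replicate 1 or 2 (adjusted p = 0.0541 to 0.152). From P1d to P7d it was 0.31 (adjusted p = 0.0205) and 0.44 at whole length (adjusted p = 0.00544), and without P1d replicate 1, P7d replicate 1 or P7d replicate 2 its adjusted p was 0.0604, 0.0587 or 0.0775. *Cox7a1* has 2 annotated transcripts, and the whole-length values use the principal one of 393 bases, not the longer one of 485. Fragments and whole-length values take 1 principal transcript for the general forms too. Of these, *Cox7a2* has 3 annotated transcripts (344 to 659 bases), *Cox8a* 2 (504 and 550) and *Cox6a1* 2 (571 and 620).

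*Cox7a2*, its general partner, was at 494, 479.9 and 442 FPKM at E18.5d, at 498, 565 and 563 at P1d and at 361, 367 and 329 at P7d. Unlike *Cox6a1* and *Cox8a* it was not lower at P1d: the values there were all above those at E18.5d, by 0.20 in log2(FPKM + 1) (adjusted p = 0.0536), which missed the threshold. It passed after median of ratios (0.27, adjusted p = 0.0167), after quantile normalization (0.28, adjusted p = 0.00454), under an equal sum of protein-coding nuclear genes (0.21, adjusted p = 0.0219) and without P1d replicate 1 (0.26, adjusted p = 0.0242). Under an equal sum of all genes it was 0.02 (adjusted p = 0.825) and at whole length 0.09 (adjusted p = 0.309). It then fell by 0.62 from P1d to P7d (adjusted p = 0.000227) and stood 0.42 lower at P7d than at E18.5d (log2 difference -0.42, adjusted p = 0.00144). After median of ratios the latter was -0.24 (adjusted p = 0.0296), and the call was lost after quantile normalization (-0.16, adjusted p = 0.0571) and without the 4 hearts (-0.41, adjusted p = 0.204), as was that between P7d and P1d without these hearts (-0.58, adjusted p = 0.0866).

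The *Cox7a1* share accordingly was 59.0%, 60.0% and 61.1% at E18.5d, 54.5%, 57.1% and 55.3% at P1d and 70.3%, 71.3% and 70.1% at P7d. Its mean fell by 4.41 points from E18.5d to P1d, with every P1d heart below every E18.5d heart. In every P7d heart it was higher than in any other, and the mean stood 10.5 points over E18.5d and 14.9 over P1d. The stage means were 60.1% ± 1.06, 55.6% ± 1.31 and 70.6% ± 0.619 (SD, n = 3; exact permutation p = 0.00357, 0.00476 adjusted). Between single stages the exact permutation test of 3 hearts against 3 cannot go below p = 0.1, which is what each of these differences gave. Counting *Cox7a2l* in the sum kept the direction of all 3.

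**Figure D2:**
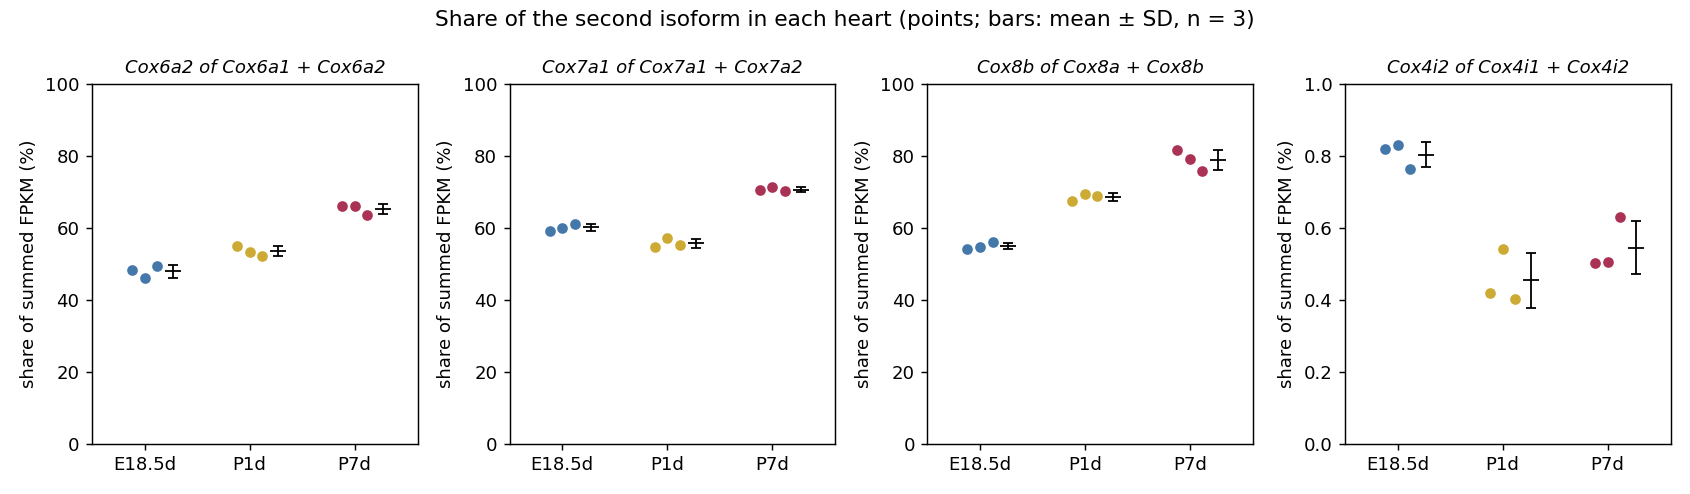
Share of the muscle form in the summed FPKM of the Cox6a, Cox7a and Cox8 pairs, and of Cox4i2 in the Cox4 pair (y axes in percent; the last runs to 1%), in each heart by stage, with mean ± SD (n = 3). Cox6a2 and Cox8b rose at each stage, to 65.2% and 78.8%, while Cox7a1 dipped from 60.1% to 55.6% at P1d before reaching 70.6%.

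The 3 pairs did not shift alike. The log2 ratio of muscle to general form was set against that of another pair within each heart. From E18.5d to P7d the Cox8 ratio gained 0.94 more than that of Cox7a and 0.59 more than that of Cox6a (exact permutation p over the 3 stages 0.0143 and 0.0214, both 0.0214 adjusted over 3 pairs of families). Cox6a gained 0.35 more than Cox7a over the same span and 0.59 more from E18.5d to P1d (exact permutation p = 0.00357, 0.0107 adjusted). With fragments in place of FPKM the 3 differences were 0.93, 0.42 and 0.52. Of the hearts that match their label, 1 is at E18.5d and 1 at P7d. Between these 2 hearts the shares gained 20.1 points for *Cox6a2*, 10.3 for *Cox7a1* and 26.8 for *Cox8b*.

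How much of a pair is the muscle form depends on the length used, while the direction does not. Per whole transcript length *Cox8b* made up 34.5%, 44.3% and 59.3% of its pair at E18.5d, P1d and P7d, against 55.0%, 68.6% and 78.8% of deposited FPKM. Of fragments it was 25.7%, 34.3% and 48.8%. *Cox7a1* was 40.8%, 33.0% and 50.0% per whole length and 29.2%, 22.7% and 37.4% of fragments. *Cox6a2*, whose transcript of 680 bases is longer than the 571 bases of *Cox6a1*, was 51.9%, 58.2% and 69.1% per whole length and 56.3%, 62.4% and 72.7% of fragments. On all 3 scales the exact permutation p of each of these pairs was 0.00357.

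**Figure D3:**
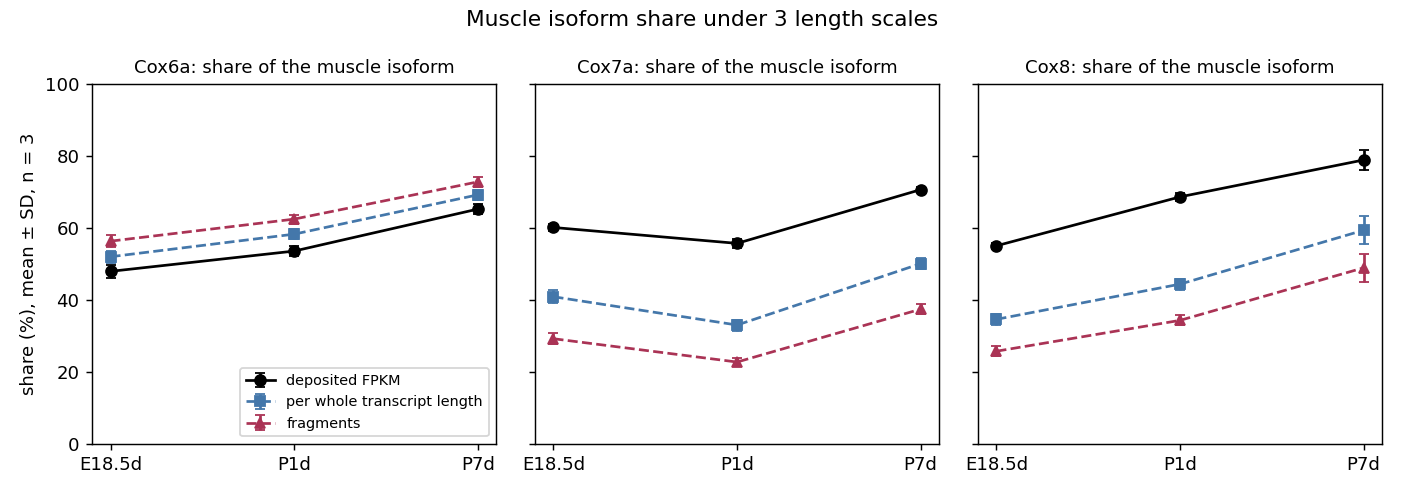
Mean ± SD (n = 3) of the muscle form's share (y axis, percent) by stage for the Cox6a, Cox7a and Cox8 pairs, from deposited FPKM (black), per whole transcript length (blue squares) and from fragments (red triangles). The lines rise and dip together at different heights, with Cox8b at P7d at 78.8%, 59.3% and 48.8%.

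*Cox4i1*, the general form of the subunit that binds ATP, was the most abundant of the 9 genes at every stage. It was at 1644, 1576 and 1532 FPKM at E18.5d, 1979, 2252 and 1983 at P1d and 2172, 2172 and 1971 at P7d. The step came by P1d (0.38 in log2(FPKM + 1), adjusted p = 0.00281), and between P7d and P1d the difference was 0.02 (95% interval -0.15 to 0.19). An overlapping gene on the other strand, *Emc8*, was at 7.38 to 13.3 FPKM, and a readthrough gene on the same strand, *Gm20388*, at 15.7 to 20.0.

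*Cox4i2* was the least abundant, at 13.6, 13.2 and 11.8 FPKM at E18.5d, 8.31, 12.3 and 7.99 at P1d and 11.0, 11.0 and 12.5 at P7d. One P1d heart lay among the E18.5d hearts. The P1d against E18.5d difference of -0.42 in log2(FPKM + 1) passed the test (adjusted p = 0.0333) but lost its call in 9 of 23 alternatives, among them the omission of E18.5d replicate 1 or 2 or of P1d replicate 1 or 3 (adjusted p = 0.0874 to 0.108). Its share of the pair in E18.5d, P1d and P7d hearts was 0.803% ± 0.0357, 0.453% ± 0.0763 and 0.545% ± 0.0725 (SD, n = 3; exact permutation p = 0.0107, also 0.0107 adjusted). As few as 94.9 fragments stood behind a value, a counting error of up to 10.3%. Of 10 pericyte and smooth muscle markers, 4 were higher and 1 lower at P1d against E18.5d, where 18.4% and 27.6% of all genes were. The higher ones were *Vtn* (0.66), *Pdgfrb* (0.49), *Kcnj8* (0.42) and *Abcc9* (0.38), and the lower one was *Cspg4* (-0.31, adjusted p = 0.00614 by limma). The differences of *Rgs5* (0.35), *Higd1b* (-0.32, adjusted p = 0.0561), *Notch3* (-0.28, adjusted p = 0.244), *Myh11* (-0.27) and *Acta2* (-0.09) were not called. In P7d hearts against E18.5d hearts 6 were higher and 1 lower (12.5% and 36.9% of all genes), with *Rgs5* at 28.9 to 45.1 FPKM at E18.5d and 98.9 to 106 at P7d. Their part in the *Cox4i2* values was not tested. Airway *Scgb3a2* reached 53.2 to 179 FPKM in 3 hearts (E18.5d replicates 1 and 2, P1d replicate 1) and was at most 1.00 in the rest, and *Cox4i2* was at 13.6, 13.2 and 8.31 in those 3. Airway *Scgb3a1* and *Scgb1a1* were highest in the same 3. The other lung markers did not follow them. *Sftpc*, *Sftpb* and *Sftpa1* were at most 0.44, 0.63 and 0.31 FPKM in any heart, and *Ager* at most 1.27, in P1d replicate 2. In whole hearts, fewer cells of a type and less RNA per cell cannot be told apart.

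*Cox7a2l*, the relative of Cox7a, was at 199, 203 and 191 FPKM at E18.5d, 233, 261 and 219 at P1d and 174, 175 and 161 at P7d. The stages did not overlap, and the gene rose by 0.26 at P1d (adjusted p = 0.0148) and fell by 0.48 afterwards (adjusted p = 0.000719) in log2(FPKM + 1). The rise lost its call in 4 of 23 alternatives: an equal sum (0.09, adjusted p = 0.369), the *Xist* covariate (0.22, adjusted p = 0.0969), without the 4 hearts (0.22, adjusted p = 0.335) and without E18.5d replicate 3 (0.24, adjusted p = 0.0504). Its difference between P7d and E18.5d, -0.22 (adjusted p = 0.0308), lost its call in 11 of 23 alternatives, among them median of ratios (-0.04) and the omission of E18.5d replicate 1 or 2 or of any P7d heart (adjusted p = 0.0507 to 0.105). A processed pseudogene, *Gm6969*, is 97.7% identical to its transcript over 342 bases and was listed at up to 4.82 FPKM, so reads could be split between them. Of the general forms, *Cox7a2* has such a copy in *Gm13433* (87.4% over 254 bases), listed at up to 14.5 FPKM, and *Cox4i1* in *Gm14382* (80.6% over 443 bases), at up to 2 FPKM. A pseudogene copy of *Cox8a* (87.1% over 202 bases) and a processed transcript like *Cox6a1* (92.7% over 496 bases) were not analysed here. The 3 muscle forms had no pseudogene at 80% identity.

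Between P7d and E18.5d, 3 of the 9 genes (*Cox4i1*, *Cox7a1*, *Cox8b*) were called higher and 4 (*Cox6a1*, *Cox7a2*, *Cox7a2l*, *Cox8a*) lower, where 12.5% of the 13618 genes tested were higher and 36.9% lower. At P1d against E18.5d, 3 were higher (*Cox4i1*, *Cox7a2l*, *Cox8b*) and 3 lower (*Cox4i2*, *Cox6a1*, *Cox8a*), against 18.4% and 27.6% of all genes. At P7d against P1d, 1 was higher (*Cox7a1*) and 4 lower (*Cox6a1*, *Cox7a2*, *Cox7a2l*, *Cox8a*), against 15.5% and 28.6%. The median log2 difference of the 9 genes from E18.5d to P7d was -0.15 and that of all genes -0.17. Median-of-ratios scaling moved the median of all genes to -0.02, and the split of called genes from 1706 higher and 5025 lower to 2905 and 2848. At P1d against E18.5d the split went from 2505 and 3755 to 3154 and 3112, and at P7d against P1d from 2112 and 3901 to 2986 and 2700. Relative to the median of all genes, the P7d against E18.5d differences of the 3 general forms stayed below it and those of the 3 muscle forms above it.

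**Figure D4:**
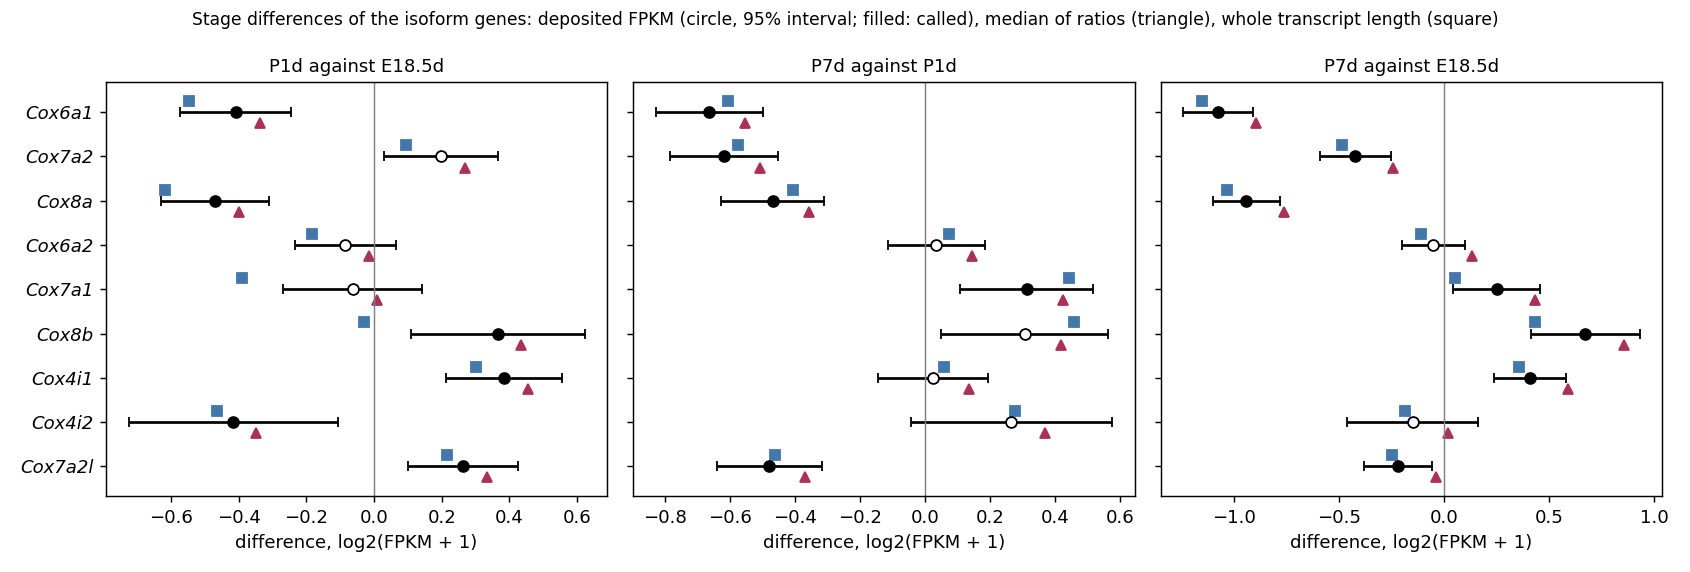
Stage differences of the 9 genes (rows) in log2(FPKM + 1), with limma estimates and 95% intervals (circles, filled where called), after median of ratios (triangles) and per whole transcript length (squares). Cox6a1 and Cox8a lie below 0 in all panels, and the square of Cox8b at P1d against E18.5d lies at -0.03 where its circle is at 0.37.

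At E18.5d the order of levels per length, in deposited FPKM, was *Cox4i1*, *Cox7a1*, *Cox8b*, *Cox6a1*, *Cox7a2*, *Cox8a*, *Cox6a2*, *Cox7a2l* and *Cox4i2*, and the hearts of neighbours from *Cox6a1* to *Cox6a2* overlapped. At P7d it was *Cox4i1*, *Cox8b*, *Cox7a1*, *Cox6a2*, *Cox7a2*, *Cox8a*, *Cox6a1*, *Cox7a2l* and *Cox4i2*, with overlap only between *Cox8b* and *Cox7a1* and between *Cox8a* and *Cox6a1*. This order rests on the effective lengths. Per whole length of the principal transcript, *Cox7a2* (258 ± 11.8) stood above *Cox7a1* (177 ± 6.39) and *Cox8a* (204 ± 2.07) above *Cox8b* (108 ± 6.43) at E18.5d, with no overlap within either pair. At P7d on that scale the order was *Cox4i1*, *Cox6a2*, *Cox7a1*, *Cox7a2*, *Cox8b*, *Cox7a2l*, *Cox6a1*, *Cox8a* and *Cox4i2*. There *Cox7a1* (185 ± 21.6) and *Cox7a2* (184 ± 12.1) overlapped, as did *Cox8b* with *Cox7a2l* and *Cox6a1* with *Cox8a*, and *Cox8b* (146 ± 19.5) lay below *Cox6a2* (230 ± 13.9), all as SD with n = 3.

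Brown fat also makes *Cox7a1* and *Cox8b*. Of its 8 markers, 3 passed the filter, and at P7d against E18.5d all 3 (*Ucp1*, *Cidea*, *Adipoq*) were higher, as were 12.5% of all genes. At P1d against E18.5d, 2 were higher, beside 18.4% of all genes. At P7d against P1d, *Ucp1* was higher and *Adipoq* lower (-0.78, adjusted p = 0.00628 by limma), beside 15.5% and 28.6% of all genes. *Ucp1*, the uncoupling protein, was at 0 in all E18.5d hearts, at 0.05, 0 and 1.31 FPKM at P1d and at 5.77, 7.26 and 6.84 at P7d. *Cidea*, a lipid droplet protein of brown fat, went from 5.56 to 7.77 FPKM at E18.5d to 25.1 to 29.4 at P7d. The 8 brown fat markers summed to 6.20 to 7.92 FPKM at E18.5d, 26.6 to 27.1 at P1d and 33.9 to 39.6 at P7d, with *Cidea* the largest part. Of the 8, 4 reached 1 FPKM in any heart, while *Elovl3* and *Adrb3* were at most 0.06 and 0.17 FPKM. The sum of the 8 was higher in every P1d heart than in any E18.5d heart. Over that step the mean *Cox7a1* share fell by 4.41 points and the mean *Cox8b* share gained 13.6. The 10 skeletal muscle markers summed to 12.9 to 15.9 FPKM at E18.5d, 9.75 to 12.5 at P1d and 6.15 to 7.45 at P7d. Only 3 of these 10 were tested. Between P7d and E18.5d none of the 3 was called higher and 2, *Tnni2* and *Tnnt3*, lower, beside 12.5% and 36.9% of all genes. The part of brown fat and skeletal muscle in the isoform values was not tested.

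The genes whose pattern over the 9 hearts was closest to each form were found by the root mean square difference of centred log2(FPKM + 1). For *Cox6a1* these were *Ppia*, which encodes cyclophilin A (0.05), *Gng5* (0.07) and *Arl3* (0.08), and *Ppia* (0.07) was also among the 3 closest to *Cox8a*, with *Ptgr1* (0.06) and the glycolytic enolase *Eno1* (0.07). *Ppia* itself averaged 1406, 1080 and 703 FPKM at E18.5d, P1d and P7d. For *Cox8b* they were *Cst3* (0.08), the ventricular light chain gene *Myl3* (0.08) and *Abcc9* (0.09), a channel subunit. For *Cox7a1* they were the complex I gene *Ndufv3* (0.05), *Sorcs2* (0.05) and *Eml1* (0.06), and for *Cox7a2* *Avpi1* (0.04), *Usmg5* (0.05), which encodes a small ATP synthase subunit, and the proteasome gene *Psmb1* (0.05). The nearest to *Cox6a2* were *Them4*, *Hras* and *Mrps5* (0.04 to 0.05), all level genes.

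The other nuclear subunits of complex IV were called at shares near those of all genes between P7d and E18.5d. Of 11 other nuclear subunits, 9 were tested, and at P7d against E18.5d 1 was higher and 4 lower, beside 12.5% and 36.9% of all genes (median log2 difference -0.04, against -0.17 for all genes). *Cox7b* fell from 194, 212 and 218 FPKM at E18.5d to 128, 136 and 126 at P7d (-0.67 in log2, adjusted p = 6.56e-05). *Cox6c* (-0.48) and *Ndufa4* (-0.46), a late-joining subunit, were also lower. *Cox6b2*, a form best known from testis, was the one higher subunit (0.29, adjusted p = 0.0408), at only 7.16 to 13.3 FPKM. At P1d against E18.5d, *Cox6b1* (0.28) and *Cox6b2* (0.58) were higher and *Cox7b* (-0.23), *Ndufa4* (-0.22) and *Ndufa4l2* (-0.36) lower, beside 18.4% and 27.6% of all genes. At P7d against P1d, *Ndufa4l2* was higher (0.37) and 6 subunits were lower, led by *Cox6c* (-0.59), *Cox7b* (-0.44) and *Cox7c* (-0.36). Of all genes, 15.5% were higher and 28.6% lower there. The subunit counts depended on the scaling. At P7d against E18.5d they became 2 higher and 3 lower after median of ratios, where 2905 and 2848 of all 13618 genes were. After quantile normalization they were 4 higher and 3 lower (2889 and 2937 of all genes). At P7d against P1d, 3 were lower after median of ratios or an equal sum (2700 and 1729 of all genes), and 2 higher and 1 lower after quantile normalization (2879 and 2787).

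Of the 3 core subunits of the mitochondrial genome, *mt-Co1* was called higher at both steps. It was at 11480, 11115 and 12354 FPKM at E18.5d, 20508, 19182 and 21994 at P1d and 24861 to 26324 at P7d, a log2 difference of 1.13 from E18.5d to P7d (adjusted p = 1.95e-05). After quantile normalization that difference was 0.86 (adjusted p = 0.0172) and neither step was called (0.63, adjusted p = 0.0545, and 0.23, adjusted p = 0.476). The other core subunits read far lower than *mt-Co1*, with stage means of 167 to 206 FPKM for *mt-Co2* and 1040 to 1397 for *mt-Co3*. The reason for this gap was not tested. Both were scattered between hearts: *mt-Co2* ranged from 106 to 349 FPKM at P7d alone. Its difference of 0.16 between P7d and E18.5d and that of *mt-Co3*, 0.31, did not pass the test.

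Of 27 assembly factors, 26 were tested, of which the P7d against E18.5d test called 2 higher and 9 lower, beside 12.5% and 36.9% of all genes (median log2 difference -0.22, against -0.17 for all genes). After median of ratios these were 4 higher and 6 lower, where 2905 and 2848 of all 13618 genes were. The lower ones were led by *Cox20* (-0.91), a chaperone of the second core subunit, *Cox16* (-0.73) and *Slirp* (-0.73), which binds mitochondrial mRNA. The higher ones were *Apopt1* (0.30) and *Cox10* (0.21), which acts in haem A synthesis. At P1d against E18.5d, 1 was higher (*Apopt1*, 0.53) and 11 lower, beside 18.4% and 27.6% of all genes. These 11 were led by *Higd1a* (-0.79), *Cmc2* (-0.77) and *Coa6* (-0.68). At P7d against P1d, 2 were higher, *Taco1* (0.49), a translational activator of *mt-Co1*, and *Higd1a* (0.42), and 5 lower, led by *Cox16* (-0.67), *Cmc1* (-0.44) and *Cox20* (-0.36). Of all genes, 15.5% were higher and 28.6% lower there. Median of ratios turned the last balance of assembly factors to 6 higher and 2 lower, where 2986 and 2700 of all 13618 genes were. *Cycs*, the somatic cytochrome c, was at 194 to 198 FPKM at E18.5d, 107 to 135 at P1d and 139 to 172 at P7d, lower at P1d (-0.73, adjusted p = 0.000334) and in part restored by P7d (0.40 against P1d, adjusted p = 0.00955).

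**Figure D5:**
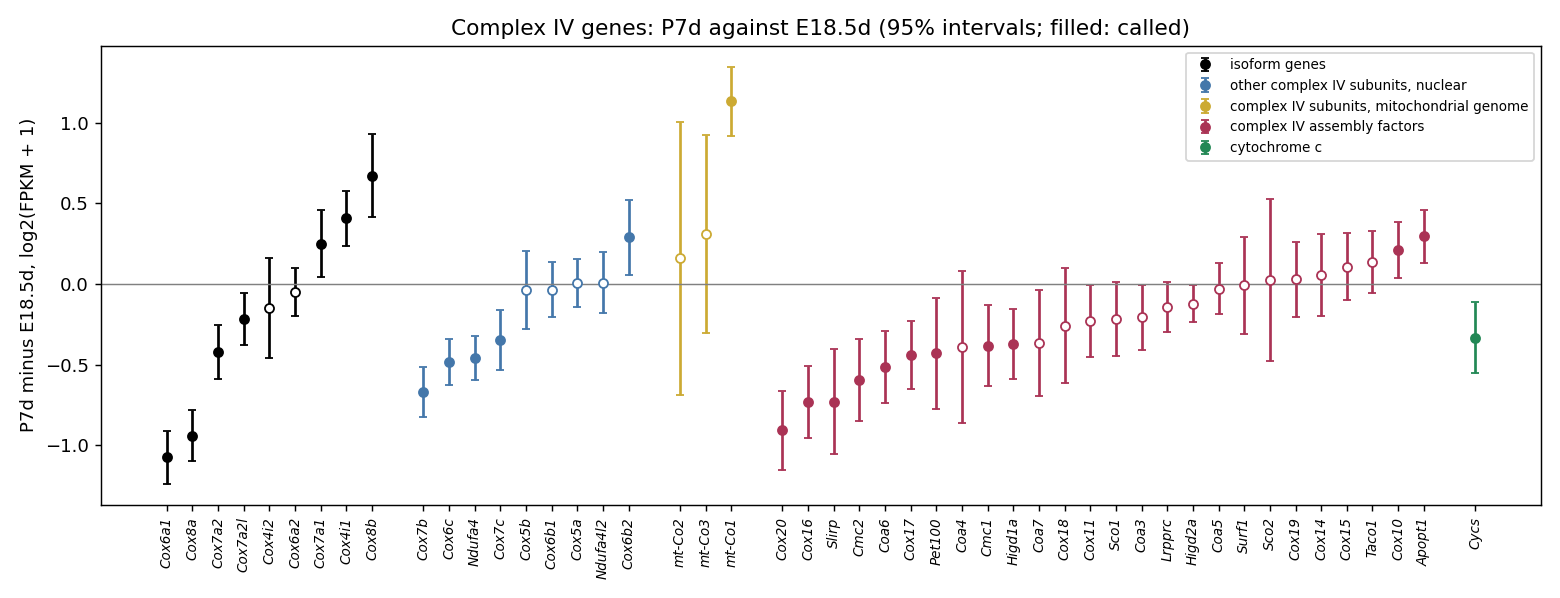
P7d minus E18.5d differences in log2(FPKM + 1) with 95% intervals for the 9 isoform genes and the other tested genes of complex IV, its assembly and cytochrome c (x axis, ordered within each group; filled points passed the test). The isoform genes spread from -1.07 (Cox6a1) to 0.67 (Cox8b), the other nuclear subunits from -0.67 to 0.29, and mt-Co1 stands at 1.13.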

How the data were processed

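RNA-seq of 9 mouse hearts was used. The values are FPKM, deposited by the authors to 2 decimals in a single table. The submitters' processing notes name STAR and GRCm38 (mm10), and the counting tool is not given in the sources used here. Gene identifiers were matched without version to GENCODE M21 (48144 of 48820).

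Genes averaging 1 FPKM or more (13618) were fitted on the log2(FPKM + 1) scale in R 4.3.3 with limma 3.58.1 (eBayes with trend, all 9 hearts). A Benjamini-Hochberg adjusted p below 0.05 made a call. This scale understates changes of low genes. The fit was tested on simulated data with 200 changed genes among 13618. For P7d against E18.5d it called 185 of the 200 and 18 unchanged genes, and for P7d against P1d 186 and 5. Depth and fragment length were fitted to the steps between low FPKM values, of which 89.4% to 92.8% were whole within 0.1 of a fragment (20% by the width of that tolerance). FPKM multiplied by effective length gave fragments, and whole-length values divided these by the principal transcript's length. Shares were compared with two-sided exact permutation tests in Python 3.11.15. Near-identical copies were searched with blastn 2.17.0 at 80% identity.

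All 9 isoform genes are named, with the mitochondrial core subunits and, of each other list, the 3 largest called changes per direction whose hearts did not overlap. The genes and lists were chosen with earlier results of these data known. The alternatives were another pseudocount (0.1), filters, scalings, omitted trend or stages, the replicate number as a block, *Xist* above 1 FPKM as a covariate or without those hearts, and each heart left out. The whole-length fits across all genes were added after seeing the data.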

Additional observations from a re-analysis of the deposited data

How the results depend on the processing

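Over 23 alternatives, *Cox6a1* kept its direction and call between P7d and E18.5d in all, and *Cox8a*, *Cox8b* and *Cox4i1* in all but the one without the 4 *Xist* hearts. Of the 621 gene-level alternatives, 517 kept both direction and call, 64 lost a call, 24 gained one and 16 changed sign. At P7d against E18.5d, *Cox4i2* changed sign to 0.0188 under median of ratios and 0.00628 under an equal sum of protein-coding nuclear genes, and *Cox6a2* to 0.132, 0.118, 0.249 (quantile) and 0.0868 (whole length with median of ratios). At P1d against E18.5d, sign changes were *Cox6a2* to 0.022 (quantile), *Cox7a1* to 0.00815 (median of ratios) and *Cox8b* to -0.0283 (whole length). At P7d against P1d, *Cox6a2* went to -0.0031 with the *Xist* covariate and -0.00423 without the *Xist* hearts. With each heart left out, *Cox4i1* and *Cox6a2* at P7d against P1d ranged from -0.00695 to 0.0861 and from -0.00588 to 0.0846, and *Cox7a1* at P1d against E18.5d from -0.136 to 0.0289.

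The 3 higher and 4 lower calls at P7d against E18.5d became 0 and 1 with a log2 change of at least 1, and also without the *Xist* hearts, and quantile normalization left 2 lower. The 3 higher at P1d against E18.5d became 1 under an equal sum and 1 with the *Xist* covariate, and 0 with a log2 change of at least 1 or without the *Xist* hearts. The 3 lower there became 5 under an equal sum, and 0 with a log2 change of at least 1 and without the *Xist* hearts. The 1 higher at P7d against P1d became 2 with a mean of at least 5 FPKM, median of ratios or whole length, 3 with an equal sum, quantile or whole length with median of ratios, 5 with an equal sum of protein-coding genes, and 0 with only the stages compared, a log2 change of at least 1, the *Xist* covariate or without the *Xist* hearts. The 4 lower there became 0 with a log2 change of at least 1 and without the *Xist* hearts. Without the *Xist* hearts E18.5d and P7d hold 1 heart each, assumed to vary like the rest. No P1d heart was among the *Xist* hearts. The part of sample size and of sex in the lost calls was not tested. At an unadjusted limma p under 0.05, the counts of 0 without the *Xist* hearts were 1 higher at P7d against E18.5d, 0 higher and 2 lower at P1d against E18.5d, and 1 higher and 4 lower at P7d against P1d. For P7d against P1d they were 2 higher with the *Xist* covariate and 1 with only the stages compared. With 1 heart left out, the higher calls ranged from 1 (without E18.5d replicate 3) to 4 at P1d against E18.5d, and at P7d against P1d from 0 (without P1d replicate 1, P7d replicate 1 or P7d replicate 2) to 3 (without P1d replicate 2), with 2 without P7d replicate 3. Calls over all 13618 genes moved with the settings too. At P7d against E18.5d, 267 were higher and 383 lower with a log2 change of at least 1, and 2889 and 2937 after quantile normalization. At P1d against E18.5d, 1175 were higher and 4694 lower under an equal sum, and 260 and 456 with a log2 change of at least 1. At P7d against P1d, 2200 were higher and 1729 lower under an equal sum, and 243 and 312 with a log2 change of at least 1.

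The *Cox6a2* share gained 20.1 points to P7d and 7.56 to P1d without the *Xist* hearts, and *Cox8b* 26.8 to P7d. For *Cox7a1*, fragments gave 8.21 and whole length 9.18 points (P7d minus E18.5d), -6.48 and -7.86 (P1d minus E18.5d) and, at whole length, 17.0 (P7d minus P1d). For *Cox8b* they gave 8.58 and 9.77 (P1d minus E18.5d) and 14.6 and 15.0 (P7d minus P1d). The cause of these shifts was not tested, except that the length scales differ by construction. Deviations of hearts with the same replicate number were little correlated between stages (-0.0546 to 0.112). This cannot exclude that the number stands for a shared litter or batch. The replicate block left 3 higher and 4 lower calls at P7d against E18.5d, 3 and 3 at P1d against E18.5d and 1 and 4 at P7d against P1d. As a block, the number left *Cox7a1* at 0.25 (adjusted p = 0.0398) and changed none of these 27 gene calls.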
